A study of Homo sapiens with 6 samples.

Results

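The genes described here are 10 components of transforming growth factor beta (TGF-beta) signalling: the ligands TGFB1, TGFB2 and INHBA, the receptors TGFBR1 and TGFBR2, the signal transducers SMAD3 and SMAD4, the inhibitors SMAD7 and SKIL, and the target gene TGFBI. They were taken by name from the 58735 genes of the deposited table, and all 10 were found. Their RNA was measured in BxPC-3 cells, as the 6 libraries are labelled, a long-established line of human pancreatic carcinoma. In 3 libraries the cells had received GSK3326595, a small-molecule inhibitor of the arginine methyltransferase PRMT5, and in the other 3 they were the DMSO controls. All cells were grown in RPMI-1640 with fetal bovine serum. The sources used here give neither the dose of the inhibitor nor how long it was applied. The series' design text speaks of a knockdown, but every library label names the inhibitor, and the labels were followed. Nothing in the labels tells whether the replicates are independent cultures, and the p-values thus cover only the spread among these 6 samples, which may be technical.

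TGF-beta ligands are secreted as latent dimers. Once freed, they bind the type II receptor TGFBR2, which recruits and phosphorylates the type I receptor TGFBR1. TGFBR1 phosphorylates SMAD2 and SMAD3, which join the shared partner SMAD4 and enter the nucleus to switch genes on or off. In normal pancreatic epithelium the pathway restrains growth, in carcinoma it can drive invasion, and SMAD4 is often lost in pancreatic cancer.

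Libraries held 14087260 to 15724750 reads, recovered from the FPKM values (fragment counts divided by gene length in kilobases and by a library scaling factor). PRMT5 itself stood at 13.4, 12.8 and 12.1 FPKM in the GSK3326595 libraries, against 23.2, 24.6 and 26.2 FPKM in DMSO. GSK3326595 replicate 2 stood apart from its 2 partners. It correlated with them at r = 0.906 and 0.904 over genes, which are not independent replicates, whereas they correlated with each other at r = 0.980. Mitochondrially encoded RNA took 11.3% of its reads, against 5.84% and 6.03% in its partners and 4.70% to 5.01% in DMSO. Genes shorter than 1.5 kilobases took 1.09% of its nuclear protein-coding reads, against 2.27% to 2.61% in the other 5 libraries. Results are therefore also given without it. Of 11 ductal epithelial markers, 5 reached a mean of 1 FPKM in both groups, KRT7, KRT8, KRT18, MUC1 and SOX9, whereas KRT19, CEACAM6 and ESRP1 had 0 reads in every library. For KRT19, 3 reads over the 6 libraries would be 0.0142 FPKM, a limit that covers counting error only. Immune markers summed to 0.0396 to 0.293 FPKM in GSK3326595 libraries and 0.233 to 0.559 FPKM in DMSO libraries. Mesenchymal and fibroblast markers summed to 89.4 to 116 FPKM with GSK3326595 and 73.3 to 81.6 FPKM in DMSO, most of it VIM, while COL1A2, PDGFRA and LUM had 0 reads. The part of these markers in the results below was not tested.

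In short, the inhibitor libraries held less RNA of the ligand TGFB1, the receptor TGFBR2 and the matrix protein gene TGFBI, and almost no RNA of the activin subunit gene INHBA. No member rose when all libraries were used. Genes were tested if they reached 1 FPKM in at least 3 libraries, which 9 of the 10 members did; INHBA did not. Of the 9, 3 fell and 0 rose (limma on log2(FPKM + 1), Benjamini-Hochberg adjusted p under 0.05). Of all 13578 genes tested, 10.0% fell and 7.18% rose, together 17.2%. The median log2 fold change of the 9 was −0.21, against −0.055 over all genes tested. Without GSK3326595 replicate 2, 6 of the 9 fell and 1 rose, where 23.1% of all genes fell and 17.5% rose, together 40.6%. In bulk RNA, fewer cells of a type and less RNA per cell cannot be told apart.

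**Figure D1:**
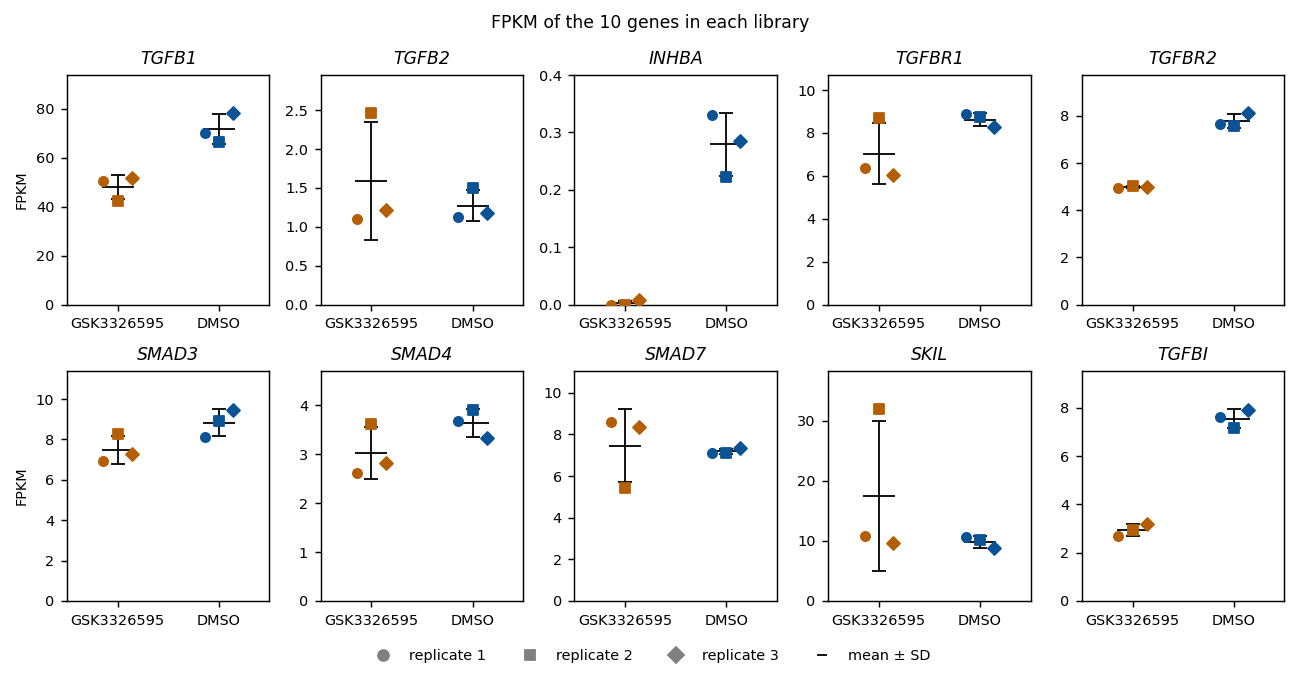
FPKM of each gene (vertical axis, linear from 0, its own scale in each panel) in the 3 GSK3326595 libraries (left) and the 3 DMSO libraries (right); symbols mark replicates, bars the mean ± SD. TGFB1, INHBA, TGFBR2 and TGFBI have groups that do not overlap, and replicate 2 of GSK3326595 is the high SKIL point at 31.9 FPKM. Of the 9 tested members, 3 lay wholly below DMSO and 0 wholly above, where 26.7% and 19.2% of all genes tested did so.

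Per unit of gene length, TGFB1 was by far the most abundant member in both groups, at 48.1 ± 5.02 FPKM with GSK3326595 and 71.6 ± 6.11 FPKM in DMSO (SD, n = 3 each, as for all means here). In DMSO the next 6 lay close together. SKIL (9.87 ± 0.969), SMAD3 (8.83 ± 0.666) and TGFBR1 (8.62 ± 0.314 FPKM) overlapped library by library. TGFBI (7.56 ± 0.383 FPKM) overlapped both TGFBR2 (7.78 ± 0.308 FPKM) and SMAD7 (7.19 ± 0.132 FPKM), while every TGFBR2 library lay above every SMAD7 library. All 3 TGFBR2 libraries lay below all 3 of TGFBR1. SMAD4 (3.64 ± 0.283), TGFB2 (1.27 ± 0.200) and INHBA (0.279 ± 0.0547 FPKM) followed, each apart from its neighbours. With GSK3326595, SKIL averaged 17.5 ± 12.5 FPKM, a mean set by replicate 2. SMAD3 (7.48 ± 0.686), SMAD7 (7.46 ± 1.75) and TGFBR1 (7.03 ± 1.43 FPKM) overlapped, TGFBR2 was next at 4.99 ± 0.0326 FPKM, and TGFBI, at 2.94 ± 0.258 FPKM, overlapped SMAD4 at 3.02 ± 0.535 FPKM. TGFB2 averaged 1.59 ± 0.757 FPKM and INHBA was last.

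Among the ligands, TGFB1 (ENSG00000105329, chromosome 19, 41301587 to 41353911, minus strand, hg38) had 50.4, 42.3 and 51.6 FPKM in the GSK3326595 libraries, against 70.0, 66.5 and 78.4 FPKM in DMSO. Every GSK3326595 library lay below every DMSO library. The log2 fold change was −0.57 (SE 0.13, adjusted p = 0.0326), and −0.48 without GSK3326595 replicate 2 (adjusted p = 0.00679). This call was thin: of the 6 fits with 1 library removed it held in 1. The adjusted p was 0.0769 and 0.0627 without GSK3326595 replicates 1 and 3, and 0.130, 0.102 and 0.125 without DMSO replicates 1, 2 and 3, while the fold change stayed between −0.62 and −0.48. Of the 3238 exon bases of TGFB1, 215 are shared with HNRNPUL1 on the other strand in GENCODE 29, and the sources used here do not give the strand setting of the counting.

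TGFB2 (ENSG00000092969, chromosome 1, 218346235 to 218444619), a TGF-beta isoform that needs the co-receptor betaglycan for strong binding, had 1.10, 2.47 and 1.21 FPKM with GSK3326595, against 1.13, 1.5 and 1.18 FPKM in DMSO. The groups overlapped, with replicate 2 of GSK3326595 alone above the rest (log2 fold change 0.16, SE 0.22, adjusted p = 0.640). The sign turned without that library, at −0.069 (adjusted p = 0.700). TGFB3, the other isoform, was not tested because it never reached 1 FPKM, with 0.372, 0.669 and 0.661 FPKM in GSK3326595 libraries and 0.755, 0.584 and 0.660 FPKM in DMSO libraries. TGFB1 made up 97.2%, 93.1% and 96.5% of the summed FPKM of the 3 isoforms with GSK3326595, against 97.4%, 97.0% and 97.7% in DMSO. The groups overlapped in this share (exact permutation test, two-sided p = 0.2, where 0.1 is the smallest p that 3 against 3 can give).

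INHBA (ENSG00000122641, chromosome 7, 41667168 to 41705834, minus strand) encodes the subunit of activin A, a ligand that signals through SMAD2 and SMAD3 by way of its own receptors. It had 0, 0 and 1 read in the GSK3326595 libraries, against 43, 27 and 35 reads in DMSO, or 0, 0 and 0.00739 FPKM against 0.331, 0.222 and 0.285 FPKM. All GSK3326595 libraries were at or next to 0, and no DMSO library was. Scaled for library size, the reads with GSK3326595 were 0.00932 of those in DMSO (95% exact Clopper-Pearson interval 0.000234 to 0.0531, counting error only). The gene was below the filter, so it was not part of the test over all genes. With no filter, it was lower at an adjusted p of 0.0201 (limma), at −0.35 on the log2(FPKM + 1) scale, a scale that compresses values this far below 1 FPKM. None of its 8302 exon bases is shared with another gene in GENCODE 29.

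Of the receptors, TGFBR2 (ENSG00000163513, chromosome 3, 30606502 to 30694142) had 4.95, 5.02 and 4.99 FPKM in the GSK3326595 libraries, against 7.65, 7.55 and 8.13 FPKM in DMSO. The inhibitor libraries, replicate 2 included, were nearly equal to each other and all below DMSO. The log2 fold change was −0.55 (SE 0.10, adjusted p = 0.0150), with the same value of −0.55 without replicate 2 (adjusted p = 0.00248). With 1 library removed at a time, the call held in 2 of 6 fits. The adjusted p was 0.0573 without GSK3326595 replicate 1 and 0.0867, 0.0769 and 0.0757 without DMSO replicates 1, 2 and 3, with fold changes of −0.57 to −0.52.

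TGFBR1 (ENSG00000106799, chromosome 9, 99104038 to 99154192), the type I receptor kinase, had 6.37, 8.68 and 6.05 FPKM with GSK3326595, against 8.87, 8.72 and 8.27 FPKM in DMSO. Replicate 2 of GSK3326595 lay within the DMSO range and the other 2 inhibitor libraries below it. With all libraries the log2 fold change was −0.27 (SE 0.15, adjusted p = 0.237), and without replicate 2 it was −0.42 (SE 0.07, adjusted p = 0.00631). The ratio of TGFBR2 to TGFBR1, both as FPKM, was 0.777, 0.578 and 0.826 with GSK3326595, against 0.862, 0.866 and 0.983 in DMSO. The ratio was lower in all 3 GSK3326595 libraries (exact permutation test, two-sided p = 0.1, the smallest that this design allows).

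None of the SMADs that carry the signal passed the test with all libraries. SMAD3 (ENSG00000166949, chromosome 15, 67063763 to 67195195), the receptor-activated SMAD that binds DNA itself, had 6.92, 8.25 and 7.28 FPKM with GSK3326595, against 8.13, 8.89 and 9.46 FPKM in DMSO. The groups overlapped at replicate 2 of GSK3326595 (log2 fold change −0.21, SE 0.12, adjusted p = 0.241; −0.28 and adjusted p = 0.0417 without it). SMAD2, its close relative, had 4.50, 7.02 and 3.78 FPKM with GSK3326595, against 3.91, 3.83 and 3.54 FPKM in DMSO (log2 fold change 0.32, adjusted p = 0.296).

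SMAD4 (ENSG00000141646, chromosome 18, 51028394 to 51085045), the shared partner of the receptor-activated SMADs, bears on the identity of the cells. BxPC-3 is known as a line with homozygous deletions of SMAD4 and of CDKN2A, the gene of the cell cycle inhibitor p16. The libraries labelled BxPC-3 nevertheless held 562, 637 and 604 SMAD4 reads with GSK3326595 and 754, 749 and 648 in DMSO. In FPKM these were 2.61, 3.63 and 2.82 with GSK3326595, against 3.67, 3.90 and 3.34 in DMSO. CDKN2A stood at 50.1 ± 22.1 FPKM with GSK3326595 and 107 ± 11.2 FPKM in DMSO. The values go against the label on both genes; where along the gene the SMAD4 reads lie cannot be read from a gene total. Of its 13123 exon bases, 967 are shared with AC091551.1 on the same strand. The change of SMAD4 between groups was small (log2 fold change −0.21, SE 0.14, adjusted p = 0.311), with replicate 2 of GSK3326595 inside the DMSO range. Without that library it was −0.32 (SE 0.09, adjusted p = 0.0379).

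The 2 inhibitors are themselves targets of the pathway and damp it as feedback. SMAD7 (ENSG00000101665, chromosome 18, 48919853 to 48952052, minus strand), which blocks the receptor and recruits ubiquitin ligases to it, had 8.59, 5.45 and 8.33 FPKM with GSK3326595, against 7.11, 7.11 and 7.34 FPKM in DMSO. The GSK3326595 libraries lay on both sides of the DMSO range, replicate 2 below it and the others above it. With all libraries the log2 fold change was 0.024 (SE 0.17, adjusted p = 0.932), a sign that turned with TPM scaling and without GSK3326595 replicate 1 or 3. Without replicate 2 SMAD7 was higher, by 0.21 (SE 0.06, adjusted p = 0.0455).

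SKIL (ENSG00000136603, chromosome 3, 170357678 to 170396835), which encodes SnoN, a co-repressor that sits on SMAD complexes, had 10.9, 31.9 and 9.61 FPKM with GSK3326595, against 10.6, 10.2 and 8.78 FPKM in DMSO. Only replicate 2 of GSK3326595 was high, and the other 5 libraries overlapped. On the log2 scale this library stood 1.55 above the mean of its partners, a difference that 0.832% of the genes tested reached or passed. Over all genes tested, the same difference ran from −1.21 at the 5th percentile to 0.90 at the 95th. The log2 fold change was 0.57 with a standard error of 0.42 (adjusted p = 0.380), and 0.051 without replicate 2 (SE 0.10, adjusted p = 0.715). Among the members, the same difference was 0.68 for TGFB2 and −0.55 for SMAD7, and 0.011 for TGFBR2 and 0.0092 for TGFBI.

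TGFBI (ENSG00000120708, chromosome 5, 136028895 to 136063818) encodes a secreted matrix protein that binds integrins and was first isolated as a gene induced by TGF-beta. It had 2.67, 2.95 and 3.19 FPKM in the GSK3326595 libraries, against 7.60, 7.15 and 7.91 FPKM in DMSO. The groups were far apart relative to their spread, and DMSO levels were 2.57 times those with GSK3326595. The log2 fold change was −1.12 (SE 0.11, adjusted p = 0.00301), and −1.12 without GSK3326595 replicate 2 (adjusted p = 0.000711). TGFBI alone among the members kept its call whichever library was removed (highest adjusted p = 0.0285). Of all genes tested, the 5 whose log2 values ran most nearly parallel to those of TGFBI over the 6 libraries were NRBP1, SPRY4, PAPSS2, PLIN2 and NPC1 (Pearson r = 0.998 to 0.999). These 6 points fall into 2 groups, so such r values mainly restate the difference between the groups. The log2 fold changes of the 5 were −0.55, −1.07, −0.75, −1.05 and −1.45.

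**Figure D2:**
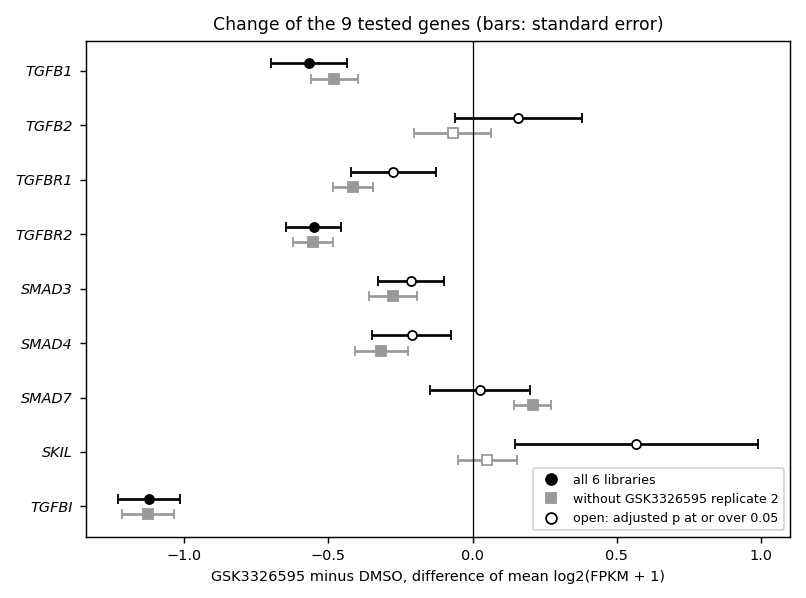
Difference of mean log2(FPKM + 1), GSK3326595 minus DMSO (horizontal axis), for the 9 tested genes, with all libraries (black circles) and without GSK3326595 replicate 2 (grey squares); bars are standard errors and open symbols were not called. TGFBI at −1.12 and TGFBR2 at −0.55 barely move between the fits, while SKIL stands at 0.57 with all libraries and at 0.051 without replicate 2.

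The start regions of the 3 called members are shown because each was called lower with all libraries. That of TGFB2 is shown as a member that holds a SMAD motif. Each is the 250 bases before a RefSeq start site (GRCh38.p14), 5′ to 3′ on the strand of the gene, with motif matches in capitals. The windows are chr5:136028738-136028987 (plus strand) for TGFBI, chr3:30606351-30606600 (plus) for TGFBR2, chr19:41353923-41354172 (minus) for TGFB1 and chr1:218345086-218345335 (plus) for TGFB2. The RefSeq start site of TGFB2, 218345336, lies before the listed start of the gene, 218346235, so its window does not adjoin the measured gene.
TGFBI: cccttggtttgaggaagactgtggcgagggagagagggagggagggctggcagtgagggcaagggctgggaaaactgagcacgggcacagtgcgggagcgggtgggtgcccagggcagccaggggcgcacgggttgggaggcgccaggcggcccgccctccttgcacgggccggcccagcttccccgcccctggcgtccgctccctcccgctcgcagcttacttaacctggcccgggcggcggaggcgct
TGFBR2: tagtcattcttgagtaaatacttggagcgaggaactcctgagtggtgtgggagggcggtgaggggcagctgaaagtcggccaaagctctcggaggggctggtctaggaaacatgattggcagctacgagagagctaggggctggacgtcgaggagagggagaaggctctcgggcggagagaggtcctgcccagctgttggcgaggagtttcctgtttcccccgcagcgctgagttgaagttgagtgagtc
TGFB1: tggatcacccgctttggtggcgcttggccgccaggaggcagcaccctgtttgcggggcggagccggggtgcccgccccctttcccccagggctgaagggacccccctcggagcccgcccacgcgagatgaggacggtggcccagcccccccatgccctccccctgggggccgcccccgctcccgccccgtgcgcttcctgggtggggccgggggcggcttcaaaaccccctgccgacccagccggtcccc
TGFB2: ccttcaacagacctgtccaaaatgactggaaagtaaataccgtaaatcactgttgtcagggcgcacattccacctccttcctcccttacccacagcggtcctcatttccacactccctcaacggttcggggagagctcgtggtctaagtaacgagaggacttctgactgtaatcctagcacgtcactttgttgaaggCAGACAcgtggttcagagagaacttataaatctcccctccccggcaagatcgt
The motifs searched, on both strands, were CAGACA, a repeat bound by SMAD3 and SMAD4, the palindromic SMAD element GTCTAGAC, the CAGA box AGCCAGACA, which contains CAGACA, and the AP-1 element TGANTCA. All 10 members matched the RefSeq table, with 24 start sites in all, since several members have more than 1. CAGACA occurred in 4 of these 24 windows, against 13.6% of the 35116 windows of all genes. The matches were at TGFB2, TGFBR1 and an internal start of SMAD3. TGANTCA occurred in 1 of the 24, at another internal start of SMAD3, against 6.57% of all windows. GTCTAGAC and AGCCAGACA occurred in 0 of the 24, against 0.182% and 0.231% of all windows. The windows of TGFBI, TGFBR2 and TGFB1 printed here hold none of these letters in these orders.

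The rest of the pathway was read from a list of 67 other ligands, receptors, antagonists, SMADs and regulators of the TGF-beta superfamily. Of these, 46 were tested, 9 fell and 1 rose, against 10.0% and 7.18% of all genes tested, and their median log2 fold change was −0.077. In 13 of the 46 the 3 GSK3326595 libraries lay wholly below DMSO and in 8 wholly above. Both counts are near the shares over all genes tested, 26.7% and 19.2%. Without GSK3326595 replicate 2, 18 fell and 7 rose, against 23.1% and 17.5% of all genes tested. The count of risers in that fit is near the share over all genes. By role, 1 of 4 ligands, 4 of 8 receptors, 2 of 10 latency proteins and antagonists, 0 of 5 SMADs and 2 of 19 regulators fell; the riser was a latency protein. The total of 10 calls dropped to 4 in each of 4 fits: without GSK3326595 replicate 1 and without DMSO replicates 1, 2 and 3.

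The falls included a trap and a receptor of activin. FST, which encodes the activin-trapping protein follistatin, had 1.03, 1.76 and 1.26 FPKM with GSK3326595, against 5.10, 4.92 and 5.64 FPKM in DMSO (log2 fold change −1.42, SE 0.15, adjusted p = 0.00366). ACVR1B, the type I activin receptor, had 5.21, 4.78 and 5.04 FPKM with GSK3326595, against 10.3, 9.96 and 11.6 FPKM in DMSO (−0.95, SE 0.11, adjusted p = 0.00467). In both genes every GSK3326595 library lay below every DMSO library, and both kept their call whichever library was removed. Other genes with a part in activin signalling, named after their values were seen, did not pass the test with all libraries. The receptor ACVR2B stood at −0.066 (adjusted p = 0.911), and the follistatin-related FSTL1 and FSTL3 at −0.30 (adjusted p = 0.304) and −0.023 (adjusted p = 0.95). Without GSK3326595 replicate 2, ACVR2B was lower at −0.49 (adjusted p = 0.0151) and FSTL1 at −0.51 (adjusted p = 0.00191). FSTL3 stood at 0.22 in that fit and was not called (adjusted p = 0.0650). ACVR2A, INHA and INHBB were below the filter.

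In the bone morphogenetic protein (BMP) branch, the BMP antagonist NOG, noggin, had 4.03, 4.42 and 3.34 FPKM with GSK3326595, against 9.16, 9.13 and 7.96 FPKM in DMSO (log2 fold change −0.99, SE 0.13, adjusted p = 0.00643). The ligand BMP6 fell by 0.64 on the log2 scale, to 23.3 ± 1.88 FPKM with GSK3326595, against 37.0 ± 2.78 FPKM in DMSO (adjusted p = 0.0170). Named after their values were seen, the other receptors that fell were ENG (−0.66), an accessory receptor, the decoy receptor BAMBI (−0.62) and the BMP type I receptor ACVR1 (−0.55). NOG kept its call whichever library was removed, whereas BMP6 kept it in 2 of 6 such fits (highest adjusted p = 0.0957, without DMSO replicate 1). ENG kept its call in 2 of 6 (highest adjusted p = 0.0993), and BAMBI and ACVR1 in 1 of 6 each (highest adjusted p = 0.155 and 0.128). Also named after their values were seen, BMP2 (−0.078), BMPR1A (0.42), BMPR2 (0.58) and SMAD9 (0.70) did not pass the test with all libraries. For BMPR1A, BMPR2 and SMAD9 every GSK3326595 library lay above every DMSO library, as in 19.2% of all genes tested. Without GSK3326595 replicate 2, BMPR2 was higher by 0.29 (adjusted p = 0.0333) and SMAD9 by 0.49 (adjusted p = 0.0309). BMP2 was lower by 0.26 in that fit (adjusted p = 0.0286).

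LTBP1, which binds latent TGF-beta and anchors it in the matrix, was the only gene of the list called higher with all libraries. It had 18.1, 26.1 and 18.2 FPKM with GSK3326595, against 8.49, 7.93 and 8.29 FPKM in DMSO, which gave 1.22 as log2 fold change (SE 0.16, adjusted p = 0.00695). All 3 GSK3326595 libraries stood above DMSO, replicate 2 highest, and the fold change without replicate 2 was 1.05 (adjusted p = 0.000356). Among the ubiquitin ligases in the list, SMURF1 fell to 8.14 ± 0.406 FPKM with GSK3326595, against 12.5 ± 0.775 FPKM in DMSO (−0.57, SE 0.10, adjusted p = 0.0175). NEDD4L, another of them and named after its values were seen, fell by 0.65 (adjusted p = 0.0190). SMURF2, WWP1, TRIM33 and TRAF6, also named after their values were seen, did not pass the test. SMURF2 stood at −0.14 (adjusted p = 0.479) and WWP1 at 0.44 (adjusted p = 0.117), with every GSK3326595 library of WWP1 above DMSO. TRIM33 stood at −0.36 (adjusted p = 0.284) and TRAF6 at −0.30 (adjusted p = 0.374). Without GSK3326595 replicate 2, WWP1 was higher by 0.27 (adjusted p = 0.0385). In that fit TRIM33 was lower by 0.61 (adjusted p = 0.00300) and TRAF6 by 0.55 (adjusted p = 0.00635). With 1 library removed, SMURF1 kept its call in 2 of 6 fits (highest adjusted p = 0.0956) and NEDD4L in 1 of 6 (highest adjusted p = 0.0967).

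**Figure D3:**
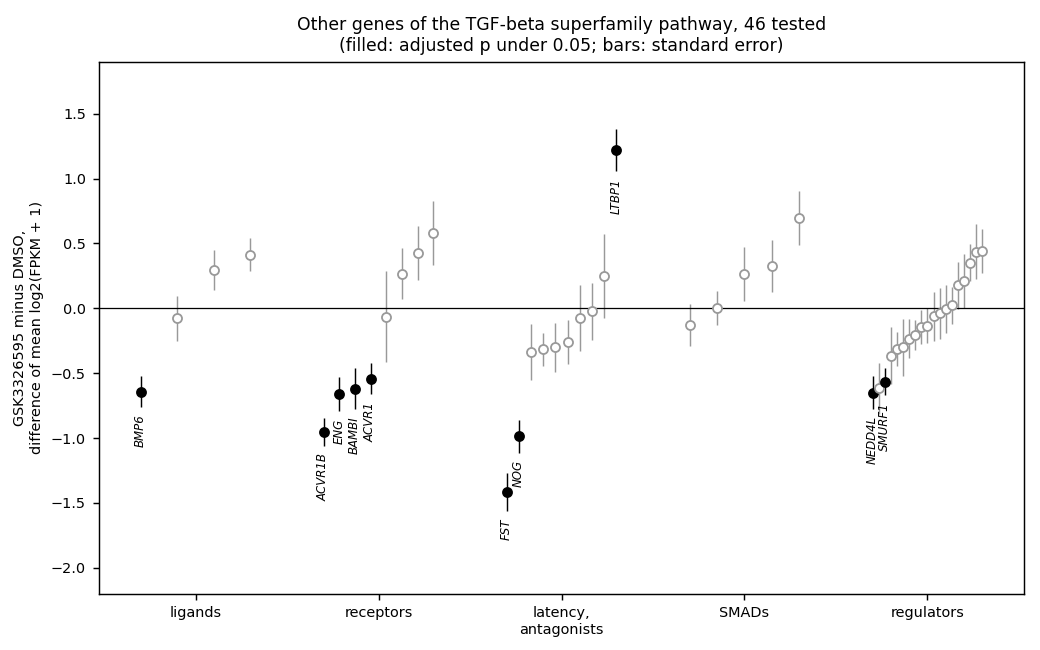
Difference of mean log2(FPKM + 1), GSK3326595 minus DMSO (vertical axis), for the 46 tested genes of the wider pathway, in columns by role; filled points passed the test and are named, bars are standard errors. LTBP1 at 1.22 is the only filled point above 0, and FST at −1.42 is the lowest.

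To see whether the pathway's transcriptional output differed, 34 genes that TGF-beta is known to raise in epithelial cells or fibroblasts were followed. Many of them answer to other pathways as well. Of these, 26 were tested, 6 fell and 1 rose, against 10.0% and 7.18% of all genes tested, with a median of −0.33 against −0.055. Without GSK3326595 replicate 2, 12 fell and 5 rose, against 23.1% and 17.5% of all genes tested, with a median of −0.20. The count of risers in that fit is near the share over all genes. In 13 of the 26 the 3 GSK3326595 libraries lay wholly below DMSO and in 3 wholly above, where 26.7% and 19.2% of all genes tested did so. TGFBI, SMAD7 and SKIL, also targets, are left out here as members; of them, only TGFBI was called with all libraries. PMEPA1, LTBP2, THBS1 and ITGB6 are in this list and in that of the wider pathway, so the lists are not separate.

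CCN2, a matricellular growth factor that is a target of both TGF-beta and YAP, had 5.76, 4.98 and 6.24 FPKM with GSK3326595, against 19.7, 21.3 and 20.8 FPKM in DMSO (−1.70, SE 0.11, adjusted p = 0.00115).

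The cytokine genes IL11 and LIF also fell. IL11 had 0.297, 0.252 and 0.666 FPKM with GSK3326595, against 3.78, 4.45 and 4.80 FPKM in DMSO (−1.94, SE 0.16, adjusted p = 0.00222). Every GSK3326595 value of IL11 was below the filter level, so it was tested only because of its DMSO values. A gene that enters in this way could hardly be called higher, though IL11 is counted among the falls. LIF had 6.98, 3.84 and 6.92 FPKM with GSK3326595, against 21.7, 19.7 and 23.1 FPKM in DMSO (−1.74, SE 0.22, adjusted p = 0.00581). Replicate 2 of GSK3326595 was the lowest LIF library, and without it the value was −1.50. The collagen-binding integrin subunit ITGA2 fell by 1.51 and the focal adhesion scaffold NEDD9 by 1.19. BHLHE40, a transcriptional repressor named after its values were seen, completed the falls at −0.90 (adjusted p = 0.0201), a call that held in 3 of 6 fits with 1 library removed (highest adjusted p = 0.0909).

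COL5A1, a fibrillar collagen chain, moved the other way. It had 74.6, 55.5 and 77.5 FPKM with GSK3326595, against 30.4, 29.4 and 31.1 FPKM in DMSO (1.15, SE 0.15, adjusted p = 0.00695). Every GSK3326595 library was above DMSO, replicate 2 least so. CCN2, IL11, LIF, ITGA2, NEDD9 and COL5A1 each kept their call whichever library was removed.

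**Figure D4:**
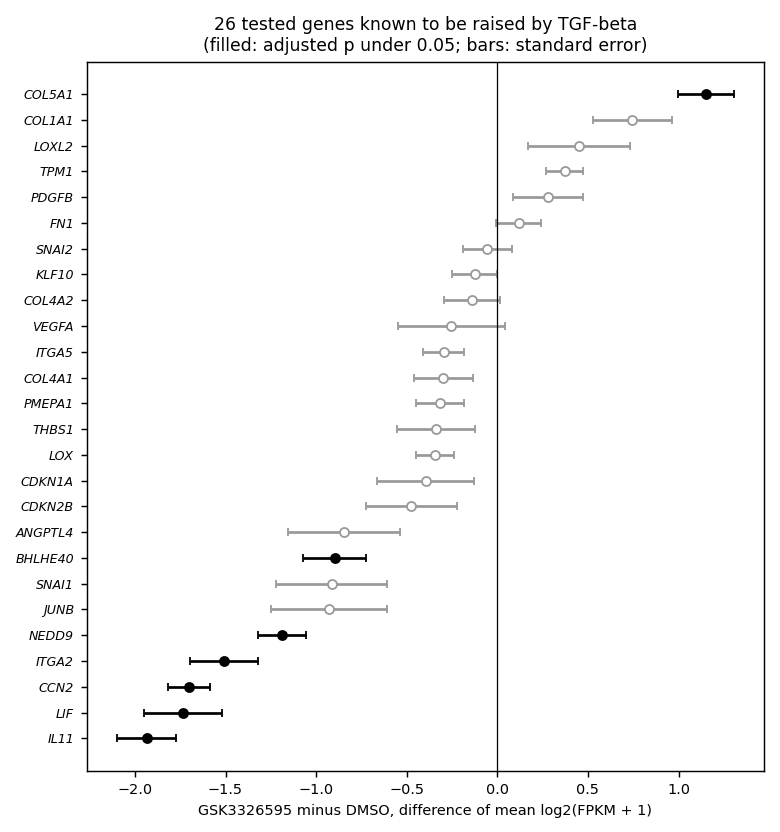
Difference of mean log2(FPKM + 1), GSK3326595 minus DMSO (horizontal axis), for the 26 tested genes that TGF-beta is known to raise, sorted from highest to lowest; filled points passed the test and bars are standard errors. IL11 at −1.94, which passed the filter through its DMSO libraries alone, is the lowest. COL5A1 at 1.15 is the only filled point above 0.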

How the data were processed

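RNA was sequenced from 3 GSK3326595 and 3 DMSO libraries whose kit was directional per the labels' protocols, on build hg38, per the submitters' processing notes. Aligner, read counter and strand setting were not given in the sources used here. For 58735 genes the authors deposited FPKM values with each gene's length in bases; for all 10 members that length equals the union of exons in GENCODE 29. FPKM times length gave whole reads (within 0.01 reads for 100% of values above 0), scaled between libraries by median-ratio size factors. Every replicate pair differed by more than sampling noise (chi-square per degree of freedom 2.48 to 101), so all 6 entered singly.

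The 13578 genes that reached 1 FPKM in at least 3 libraries were fitted as log2(FPKM + 1) with limma 3.58.1 in R 4.3.3 (mean-variance trend, no block, two-sided), with Benjamini-Hochberg adjustment over all of them and a threshold of 0.05. On this scale the changes of weakly expressed genes are understated. The fit was tested on simulated data in which no library stood apart, so that test does not cover a library like GSK3326595 replicate 2. Python 3.11.15 with pandas 2.3.3, numpy 2.4.6 and scipy 1.17.1 handled tables, and matplotlib 3.10.9 drew the plots. Current symbols were matched by gene ID (CCN2 is listed as CTGF).

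The members and the lists were chosen with earlier results of these data known. Genes named were the 10 members, PRMT5, CCN2, TGFB3 and SMAD2, up to 6 called genes with the smallest adjusted p from each list, and 5 genes most like the member that fell most; others are said to be named after their values were seen, and markers are named from their own list. For 1 gene of the target list, results are not reported here. Alternatives were 2 other pseudocounts, other filters, TPM and quantile scaling, other variance models, library weights, a replicate block, leaving out each library, removal of a length trend, limma-voom on the recovered reads and a stricter threshold.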

Additional observations from a re-analysis of the deposited data

How the results depend on the processing

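The main counts of called genes were 3 members, 10 of the wider pathway and 7 targets. Leaving out 1 library at a time gave 1 to 7 members, 4 to 25 pathway genes and 6 to 17 targets, the highest always without GSK3326595 replicate 2. Calls over all genes moved too: 975 higher and 1364 lower with all libraries, 214 and 264 without DMSO replicate 1, which gave the fewest, and 2372 and 3141 without GSK3326595 replicate 2. Estimated library weights, which weigh that library at 0.0624, gave 7, 34 and 20, with 3401 higher and 4296 lower over all genes. A threshold of 0.01 gave 1 member and 4 pathway genes, with 218 higher and 325 lower over all genes. The cause of these shifts was not tested. The 3 counts stayed within 1.5 times the main ones under the other alternatives run. With no filter TGFB1 was not called (adjusted p = 0.0579) and INHBA was, so the count of 3 there is not the same genes. With a pseudocount of 0.1 or 0.5 the INHBA difference was −1.88 or −0.63 in place of −0.35. Among the members and the genes not named after their values were seen, markers aside, signs turned for 3, none called with all libraries. These were TGFB3 (−0.092, untested, and 0.00058 without GSK3326595 replicate 1), TGFB2 (−0.075 with library weights, and −0.069 to 0.29 leaving out 1 library, lowest without GSK3326595 replicate 2) and SMAD7 (−0.0081 with TPM scaling, −0.078 and −0.058 without GSK3326595 replicates 1 and 3, and at most 0.21, without replicate 2). FSTL3, named after its values were seen, also turned, from −0.023 to 0.22 without GSK3326595 replicate 2. Signs of the other genes named in that way are not listed here for every alternative. Same-numbered libraries of the 2 groups did not all deviate together (correlations −0.018, 0.157 and 0.248). Replicate 1 of GSK3326595 correlated best with DMSO replicate 3 (0.0920), the others with their own number. Whether equal numbers mark libraries handled together cannot be told from these values. The replicate block gave 2 members (TGFB1 at adjusted p = 0.0503), 7 pathway genes and 7 targets. Genes under 1 FPKM, such as INHBA and TGFB3, rest on few reads.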

Other observations

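The response genes of the BMP branch, chosen after the values above were seen and so given with no test, gave the following values. ID1, which encodes an inhibitor of basic helix-loop-helix factors, had 309, 153 and 334 FPKM with GSK3326595, against 322, 297 and 345 FPKM in DMSO. ID3, its relative, had 136, 43.5 and 133 FPKM with GSK3326595, against 128, 122 and 132 FPKM in DMSO. In both genes replicate 2 of GSK3326595 was far below the other 5 libraries, which overlapped. The 2 genes are listed at 1233 and 1797 bases. Genes shorter than 1.5 kilobases took a smaller share of the nuclear protein-coding reads of that library, a class that leaves out the gene of 1797 bases. The part of length in these values was not tested. ID2 had 10.0, 6.30 and 8.48 FPKM with GSK3326595, against 5.51, 6.22 and 6.19 FPKM in DMSO. ATOH8, a basic helix-loop-helix factor, had 2.81, 2.37 and 2.63 FPKM with GSK3326595, against 1.56, 1.61 and 1.47 FPKM in DMSO. For ID2 and ATOH8 all GSK3326595 libraries lay above all DMSO libraries. ID4 and HAMP had 0 reads in every library.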
